A study of Homo sapiens with 42 samples.

Results

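Notch signalling and the lineage factors TP63 and SOX2 sit at the choice between the basal state and differentiation in squamous epithelium, and 9 of their genes were followed here in HNSCC (head and neck squamous cell carcinoma) lines given cetuximab, an antibody that blocks EGFR. The list of 10 genes was set by name (NOTCH1, NOTCH2, NOTCH3, JAG1, JAG2, DLL1, HES1, HEY1, TP63 and SOX2), and the rule uses no measured value. Each gene was read from its brightest probe set over the 42 arrays, among those annotated to it alone, and 19775 genes were covered in this way. TP63 was not analysed here, because the annotation used pairs no probe set with it, so all counts below are out of 9.

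There were 6 HNSCC lines with both conditions (SCC25, SQ20B, SCC61, SCC047, SCC090 and 93VU147T), each with 3 arrays of cells treated with 100 nM cetuximab for 24 h and 3 control arrays, which the labels give as untreated and the study's methods as PBS. The labels also give the colony area left after 7 days of cetuximab relative to control, which was 7.61% in SCC25, 28.65% in SQ20B, 31.2% in SCC047, 35.57% in 93VU147T, 39.07% in SCC090 and 40.16% in SCC61. The SCC047, SCC090 and 93VU147T lines carry human papillomavirus and the others do not, SQ20B has amplified EGFR, and SCC61 a mutated PIK3CA. Cetuximab-treated SCC1 cells (3 arrays, 29.44% survival) and untreated HaCaT cells, an immortal and non-tumorigenic keratinocyte line (3 arrays, 32.57%), were each run on another date than most arrays by their array names and are described without a test, since date and line cannot be told apart there. HaCaT replicates 1 and 2 carry the same sample number in these names, so that they may be repeat arrays of the same RNA. No source says that the replicates of a line were separate cultures, so the spread behind the p-values may be technical. All values are log2 expression, in which 1 unit is a doubling, and changes are cetuximab minus control. Calls are made at an adjusted p under 0.05 (limma, Benjamini-Hochberg over all 19775 genes).

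Notch receptors are single-pass membrane proteins that are cut by ADAM proteases and gamma-secretase when a Jagged or Delta-like ligand on a neighbouring cell binds them. The freed intracellular domain joins RBPJ and Mastermind proteins on DNA and turns on HES and HEY repressors. In stratified epithelium, Notch signalling accompanies the exit from the basal layer, whereas TP63 maintains basal cells, and SOX2, which neighbours TP63 on the long arm of chromosome 3, is often gained in squamous cancers.

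HES1 is the textbook RBPJ target, so its promoter is shown to place the readout of the pathway. Among RefSeq promoters of GRCh38.p14, entries were found for 8 of the 10 genes. DLL1 and HEY1 had none, so the promoter of HEY1, the other target among the members, was not searched. The 250 bases before each start were searched on both strands for the RBPJ core TGGGAA. HES1 (gene at chr3:194136148-194138732, plus strand) held 2 matches, 84 to 79 and 70 to 65 bases before the start and 14 bases apart, and the other 7 held none. Of 35116 promoter windows of this length in the table, 20.8% held a match. The HES1 window lies at chr3:194135898-194136147 on the plus strand and is printed 5′ to 3′ with the matches in capitals.
HES1 promoter: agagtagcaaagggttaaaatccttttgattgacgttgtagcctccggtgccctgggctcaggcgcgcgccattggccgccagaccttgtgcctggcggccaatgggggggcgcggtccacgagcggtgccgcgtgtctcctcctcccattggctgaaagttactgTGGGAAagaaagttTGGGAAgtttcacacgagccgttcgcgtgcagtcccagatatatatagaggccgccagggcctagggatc
The N box CACNAG, which HES proteins bind, occurred 3 times in the same HES1 window on either strand, none overlapping an RBPJ match, and 1 time in that of NOTCH3, against 32% of all windows with at least 1. These are matches of letters, and whether any factor binds there was not measured.

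In untreated cells all 9 genes differed between the 6 lines (moderated F test in limma, adjusted p between 2.85e-24 and 1.78e-14), as did 77.1% of all genes. The ranges ran from 1.16 log2 units for JAG2, which is 2.23-fold, to 8.62 for SOX2, whose low end in SQ20B cannot be told from background, so that no fold is given. HEY1 (6.38) and NOTCH3 (4.76) had ranges wider than 99.6% and 98.3% of genes. SCC090 was the top line for NOTCH1, NOTCH3, JAG1, HEY1 and SOX2, and SQ20B was the bottom line for NOTCH1, NOTCH3, JAG1, JAG2, HES1 and SOX2.

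**Figure D1:**
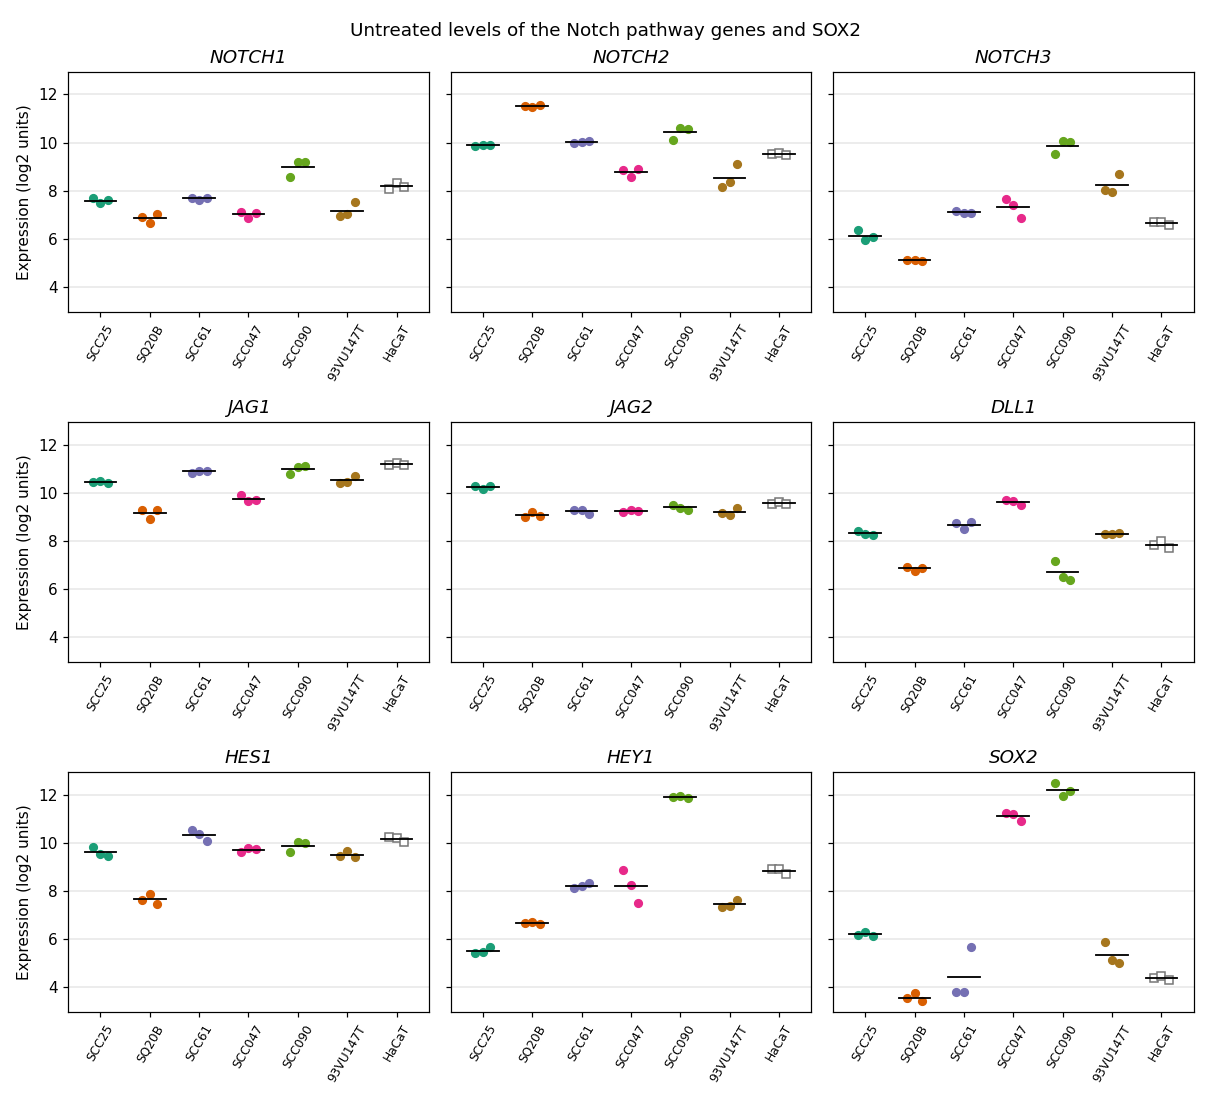
Untreated expression (log2 units) of the 9 genes in each control array of the 6 HNSCC lines (filled circles) and of HaCaT (open squares), with a bar at the mean of 3 arrays. SOX2 splits into 2 lines above 10.9 and the rest below 6.3, and the 3 HEY1 arrays of SCC090 lie above 11.8.

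Among the receptors, NOTCH3 had the widest span. Its control arrays in SCC090 read 9.53, 10.07 and 10.01, against low levels of 5.13, 5.13 and 5.08 in SQ20B. The full order was SCC090 (9.87 ± 0.30, SD, n = 3), 93VU147T (8.23 ± 0.42), SCC047 (7.31 ± 0.41), SCC61 (7.10 ± 0.05), SCC25 (6.13 ± 0.22) and SQ20B (5.11 ± 0.03). Each step of this order passed limma except that between SCC047 and SCC61 (0.22 ± 0.18, SE, adjusted p = 0.345). HaCaT lay at 6.66 ± 0.06, between SCC25 and SCC61.

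NOTCH1, the receptor most studied in keratinocyte differentiation and often mutated in HNSCC, stood apart in SCC090. There it read 8.56, 9.20 and 9.18, with no overlap with any other line, and was 1.30 ± 0.13 above SCC61, next in the order (adjusted p = 1.78e-10). SCC61 (7.68) and SCC25 (7.59) did not differ beyond their spread (adjusted p = 0.636), while SCC25 was above 93VU147T (7.17) by 0.42 ± 0.13 (adjusted p = 0.00713). The steps from 93VU147T to SCC047 (7.02) and from there to SQ20B (6.87) were within the spread (adjusted p = 0.412 and 0.345). HaCaT was at 8.19 ± 0.14.

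NOTCH2 ran the other way in SQ20B, where it was highest at 11.52, 11.49 and 11.56. SCC090 followed 1.10 ± 0.15 lower at 10.42 (adjusted p = 1.33e-07), then SCC61 at 10.03, SCC25 at 9.89, SCC047 at 8.78 and 93VU147T at 8.54. The steps from SCC61 to SCC25 and from SCC047 to 93VU147T were within the spread (adjusted p = 0.48 and 0.226). SQ20B was thus the line with the highest NOTCH2 and the lowest mean of NOTCH3, and its NOTCH1 mean was also the lowest.

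Of the ligands, JAG1 was high in SCC090 (10.78, 11.05 and 11.11) and SCC61 (10.83, 10.90 and 10.92), which did not differ (0.10 ± 0.10, adjusted p = 0.419). 93VU147T (10.52) and SCC25 (10.45) formed the next pair (adjusted p = 0.602), SCC047 was at 9.75, and SQ20B was lowest at 9.28, 8.92 and 9.29. HaCaT, at 11.18 ± 0.04, was above the mean of every cancer line.

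JAG2 separated SCC25 from the rest. It read 10.26, 10.14 and 10.29 there, 0.84 ± 0.08 above SCC090 (adjusted p = 2.76e-11), and the other 5 lines lay between 9.07 and 9.39 with no neighbouring pair that passed (adjusted p 0.102 to 0.899).

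DLL1, the Delta-like ligand found on clustered basal stem cells of the epidermis, was highest in SCC047 (9.71, 9.67 and 9.50) and lowest in SCC090 (7.16, 6.51 and 6.39) and SQ20B (6.93, 6.75 and 6.88). The lowest pair did not differ (0.16 ± 0.13, adjusted p = 0.279), nor did SCC25 and 93VU147T in the middle at 8.31 and 8.30 (adjusted p = 0.946). SCC090 was thus at the top of the order for JAG1 and at the bottom for DLL1.

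The HES1 level was lowest in SQ20B, at 7.62, 7.87 and 7.47, which was 1.86 ± 0.12 under 93VU147T, next above it (adjusted p = 3.89e-15). SCC61 was highest at 10.53, 10.36 and 10.09, and SCC090 (9.88), SCC047 (9.71), SCC25 (9.60) and 93VU147T (9.51) followed with no neighbouring pair among these 4 apart (adjusted p 0.229 to 0.581). HaCaT was at 10.16 ± 0.10.

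HEY1, a close relative of HES1, spread far more. SCC090 read 11.92, 11.93 and 11.88, which was 3.69 ± 0.17 above SCC61 (adjusted p = 8.4e-19) and, against the mean of the other 5 lines, 25.9-fold higher. SCC61 and SCC047 shared a mean of 8.22 and 8.21 (adjusted p = 0.986), but the SCC047 arrays ranged from 7.52 to 8.85. Below them came 93VU147T (7.44), SQ20B (6.67) and SCC25 (5.44, 5.47 and 5.67), each apart from its neighbour. HaCaT was at 8.85 ± 0.12.

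SOX2, a stem cell transcription factor, was high in 2 of the 6 lines. SCC090 read 12.48, 11.94 and 12.16 and SCC047 read 11.24, 11.20 and 10.92, a difference of 1.07 ± 0.28 (adjusted p = 0.00148). SCC25 came next at 6.20, 4.92 ± 0.28 below SCC047 (adjusted p = 5.19e-16), then 93VU147T at 5.35, SCC61 at 4.42 and SQ20B at 3.57. The SCC61 mean rests on arrays of 3.80, 3.79 and 5.67, and no detection call was used here, so the order among the low lines may be that of background signal. The low level of SOX2 held for HaCaT (4.39 ± 0.09) and for treated SCC1 (3.49 ± 0.08). The second and the third SOX2 probe set in brightness also had their highest untreated means in SCC090 (10.84 and 9.21) and SCC047 (9.02 and 7.24), and were between 4.71 and 5.22 and between 4.76 and 5.02 in the other 4 lines.

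Cetuximab moved the members in different directions in different lines. Of the 54 tests (9 genes in 6 lines) 19 passed, 9 higher and 10 lower, and 7 of 9 genes passed in at least 1 line. NOTCH3, JAG1, DLL1 and HES1, 4 genes, were called higher in some line and lower in another. Over all genes the share that passed in a line ran from 1.4% in SCC090 to 44.1% in SCC61. The shares of all genes called in at least 1 line, or in both directions, were not computed, so these counts are descriptions. JAG2 alone among the 9 had a positive change in all 6 lines, and 7.82% of all genes had 1 sign in all 6. In the test of the difference between lines itself, 7 of 9 genes passed, against 59% of all genes (limma moderated F test). The exceptions were NOTCH2 (adjusted p = 0.681) and SOX2 (adjusted p = 0.18).

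**Figure D2:**
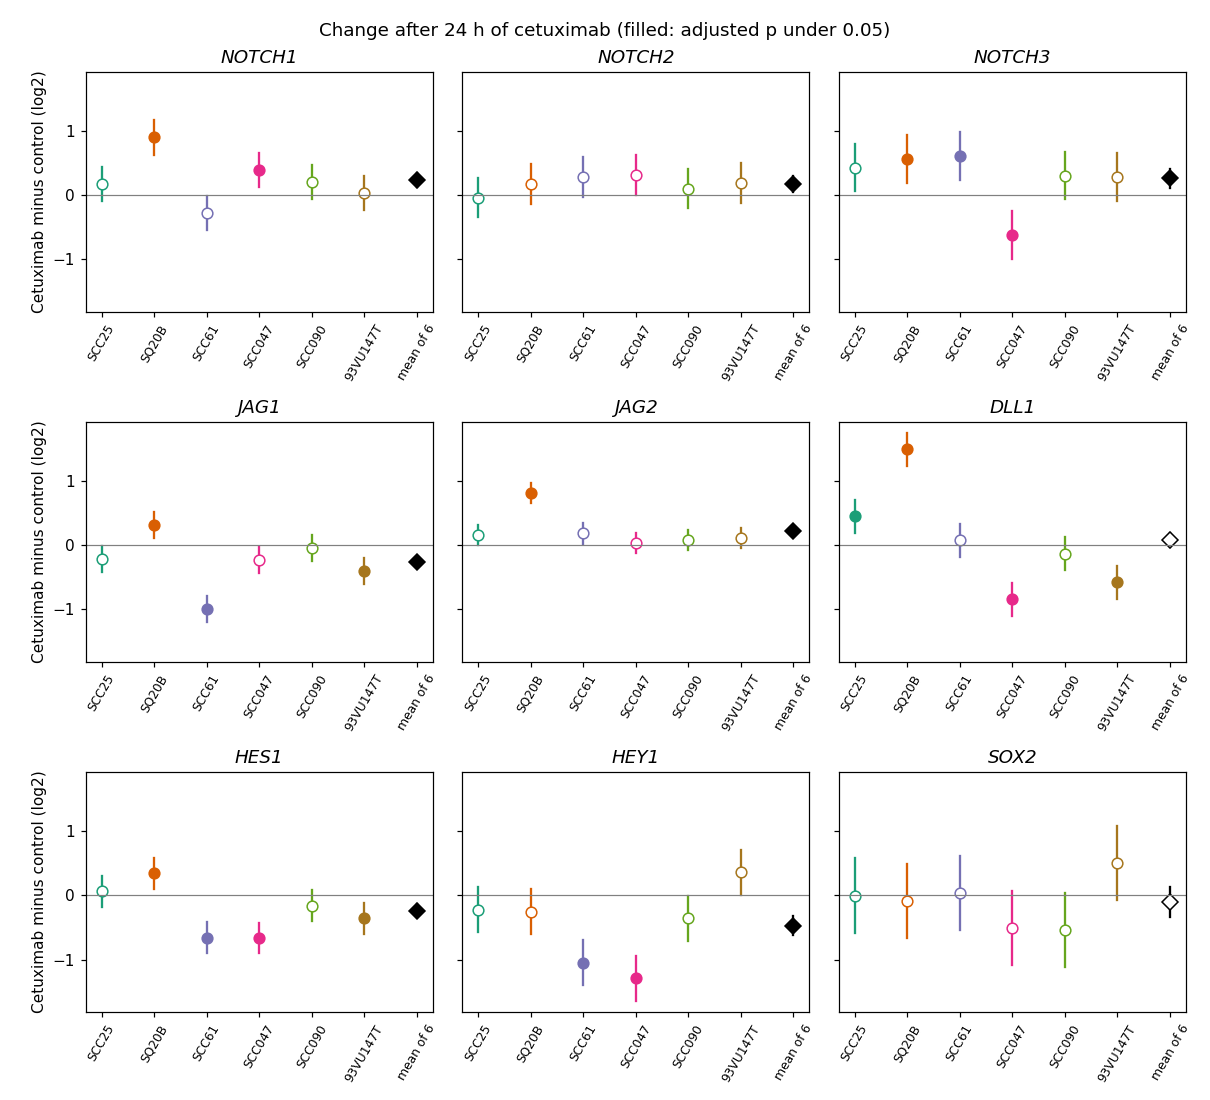
Change in expression (cetuximab minus control, log2 units) of the 9 genes in each of the 6 lines and in their mean, with 95% confidence intervals of the limma fit, filled where the adjusted p is under 0.05. DLL1 runs from 1.49 in SQ20B to -0.84 in SCC047, HEY1 reaches -1.29 in SCC047, and JAG1 reaches -0.99 in SCC61.

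In SQ20B 6 of 9 members were higher (NOTCH1, NOTCH3, JAG1, JAG2, DLL1 and HES1) and 0 lower, where 18.4% of all genes were higher and 14.9% lower (33.3% in all). The median change of the members was 0.34 against -0.03 over all genes. In SCC047 1 member was higher and 4 were lower (all genes 17.3% and 19%, 36.2% in all). In SCC61 these counts were 1 and 3 (24.4% and 19.8%, 44.1% in all), close to the background. In 93VU147T they were 0 and 3 (15.8% and 18.8%, 34.6% in all), and in SCC25 1 and 0 (8.66% and 7.3%, 16% in all). No member passed in SCC090, in limma at an adjusted p under 0.05, where only 0.516% and 0.885% of all genes did (1.4% in all). HEY1 in that line had an unadjusted p = 0.0472 (limma).

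DLL1 showed the widest spread of changes of the members, 2.32 log2 units between lines (F test adjusted p = 1.37e-11). In SQ20B its arrays went from 6.93, 6.75 and 6.88 to 8.42, 8.25 and 8.34, an increase of 1.49 ± 0.13 (SE, n = 3 and 3, 2.8-fold, limma adjusted p = 6.35e-11). In SCC047 they went from 9.71, 9.67 and 9.50 to 8.87, 8.66 and 8.83, a change of -0.84 ± 0.13 (adjusted p = 2.81e-06). The groups did not overlap in either line.

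In 93VU147T the DLL1 arrays fell from 8.29, 8.30 and 8.32 to 7.77, 7.63 and 7.78, by 0.57 ± 0.13 (adjusted p = 0.000514). SCC25 gave an increase of 0.45 ± 0.13 (adjusted p = 0.0118), which was lost when CTX replicate 1 (adjusted p = 0.0648) or control replicate 3 (adjusted p = 0.056) was left out. SCC61 (0.08) and SCC090 (-0.14) did not pass. The opposed changes left a mean of 0.08 ± 0.05 over the 6 lines (adjusted p = 0.228). Without SQ20B this mean was -0.20 (adjusted p = 0.00356), without SCC047 0.26 (adjusted p = 0.000386), without 93VU147T 0.21 (adjusted p = 0.00385) and without SCC090 control replicate 1, at 7.16 the highest of its group, 0.12 (adjusted p = 0.0149). A much dimmer DLL1 probe set moved by 0.30 in SQ20B and -0.25 in SCC047 and passed in neither (adjusted p = 0.112 and 0.186). The same probe set gave -0.04 in 93VU147T and 0.31 in SCC25 and passed in neither of these (adjusted p = 0.879 and 0.161).

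JAG1 fell most in SCC61, from 10.83, 10.90 and 10.92 to 9.82, 9.93 and 9.92, a change of -0.99 ± 0.10 (1.99-fold lower, limma adjusted p = 5.62e-10). 93VU147T followed, from 10.40, 10.45 and 10.71 to 10.22, 9.92 and 10.20, a change of -0.41 ± 0.10 (adjusted p = 0.00149). SQ20B alone was called higher, from 9.28, 8.92 and 9.29 to 9.54, 9.43 and 9.47, by 0.31 ± 0.10 (adjusted p = 0.0138). That call was lost without control replicate 2 (0.19, adjusted p = 0.163) or CTX replicate 1 (0.28, adjusted p = 0.0612). Averaged over the lines JAG1 changed by -0.26 ± 0.04 (adjusted p = 3.34e-06), or by -0.12 without SCC61 (adjusted p = 0.0377) and by -0.14 with the mean of all its probe sets (adjusted p = 0.000735). In a fit over all probe sets, the next 3 in brightness all fell in SCC61 (-0.90, -0.63 and -0.93). In SQ20B they gave 0.40, 0.84 and -0.19, of which the last did not pass (adjusted p = 0.362). Their means over the lines were -0.18, -0.01 and -0.27, of which the second did not pass (adjusted p = 0.931). The SQ20B increase and the mean decrease thus depend on the probe set.

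JAG2 rose in SQ20B from 9.00, 9.19 and 9.02 to 9.86, 9.78 and 9.98, by 0.81 ± 0.08 (1.75-fold, limma adjusted p = 7.97e-10). Its change was between 0.03 and 0.18 in the other 5 lines and passed in none of them, with SCC61 closest (0.18 ± 0.08, adjusted p = 0.0558, and past the threshold without CTX replicate 2, 0.24, adjusted p = 0.0203). The treated SQ20B arrays thus came to lie above the untreated arrays of every line but SCC25. Its other probe set gave 0.99 in SQ20B. The mean of JAG2 over the lines was 0.23 ± 0.03 (adjusted p = 6.82e-07), and 0.11 without SQ20B (adjusted p = 0.0102).

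NOTCH1 also rose most in SQ20B, from 6.92, 6.67 and 7.02 to 7.76, 7.69 and 7.84, by 0.89 ± 0.13 (1.86-fold, limma adjusted p = 2.1e-06). A smaller increase in SCC047, 0.38 ± 0.13 (adjusted p = 0.0203), was lost when CTX replicate 3 (adjusted p = 0.0875) or control replicate 2 (adjusted p = 0.11) was left out. In SCC61 the groups did not overlap, but the change of -0.28 ± 0.13 did not pass (adjusted p = 0.0879). It passed without CTX replicate 1 (-0.36, adjusted p = 0.0489), with quantile normalization (-0.37, adjusted p = 0.0206) and with the mean of both probe sets (-0.51, adjusted p = 0.000122). The dimmer NOTCH1 probe set followed a different course, with -0.05 in SQ20B and -0.74 in SCC61 (adjusted p = 1.49e-06 when it stands for the gene). The mean over lines was 0.23 ± 0.05 (adjusted p = 0.000547) on the brighter probe set and -0.13 (adjusted p = 0.0269) on the dimmer, so its direction rests on the choice of probe set. Without SQ20B the former was 0.10 (adjusted p = 0.155), and the mean of both probe sets gave 0.055 (adjusted p = 0.295).

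NOTCH3 was called higher in SQ20B (0.56 ± 0.18, limma adjusted p = 0.0165), from a low 5.11, and in SCC61 (0.60 ± 0.18, adjusted p = 0.00677). With the mean of both probe sets neither call held (0.20 and 0.26, adjusted p = 0.224 and 0.0906). In SCC61 the arrays went from 7.16, 7.07 and 7.06 to 7.88, 7.66 and 7.56, without overlap. In SCC047 they went from 7.67, 7.40 and 6.87 to 6.94, 6.78 and 6.34, which overlap, a change of -0.63 ± 0.18 (adjusted p = 0.00651). That call was lost without CTX replicate 3 or control replicate 1 (adjusted p = 0.0763 and 0.0743). The dimmer NOTCH3 probe set gave changes between -0.15 and -0.05 in all 6 lines and passed in none alone, but in their mean it was lower (-0.11, adjusted p = 0.0253), against a mean of 0.26 ± 0.07 (adjusted p = 0.00501) on the brighter, or 0.19 without SCC61 (adjusted p = 0.0671) and 0.43 without SCC047 (adjusted p = 6.02e-05). The mean of both probe sets gave 0.073 (adjusted p = 0.244). In 93VU147T the increase of 0.28 did not pass (adjusted p = 0.246) except without control replicate 3 (0.52, adjusted p = 0.025).

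NOTCH2 moved little. Its changes ran from -0.04 in SCC25 to 0.31 in SCC047 and passed in no line, and the mean of the 6 lines was 0.17 ± 0.06 (limma adjusted p = 0.0271, 95% confidence interval 0.04 to 0.29). That mean call was lost when any of 3 single arrays was left out, 93VU147T control replicate 1, SCC047 control replicate 2 or SCC090 control replicate 1 (adjusted p 0.0513 to 0.0542), and without the lines SCC61, SCC047 or 93VU147T (adjusted p 0.054 to 0.103). The probe set used is of the type whose probes may match related sequences, and the NOTCH2NL genes hold near-identical ones, so its signal may be shared. Leaving out 93VU147T control replicate 3, whose NOTCH2 read 9.12 against 8.14 and 8.37 in its pair, gave an increase of 0.47 in that line (adjusted p = 0.00345).

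Both repressor targets fell in SCC61 and SCC047. HES1 went from 10.53, 10.36 and 10.09 to 9.79, 9.55 and 9.66 in SCC61, a change of -0.66 ± 0.12 (1.58-fold lower, limma adjusted p = 2.02e-05). In SCC047 it went from 9.60, 9.81 and 9.73 to 9.06, 9.16 and 8.93, also -0.66 ± 0.12 (adjusted p = 3.26e-05). The groups did not overlap in these lines.

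HES1 changed less elsewhere. It fell by 0.36 ± 0.12 in 93VU147T (adjusted p = 0.0168), a call lost without CTX replicate 3 or control replicate 2 (adjusted p = 0.0675 and 0.1) and on the next probe set (-0.16, adjusted p = 0.331). In SQ20B it was called higher (0.34 ± 0.12, adjusted p = 0.0237), but the arrays overlapped, with 7.62, 7.87 and 7.47 against 8.02, 7.84 and 8.11. The SQ20B call was lost on the next probe set (0.04, adjusted p = 0.862), with quantile normalization (0.27, adjusted p = 0.0795) and without control replicate 3, the single fitted array with another date in its name (0.25, adjusted p = 0.145), control replicate 1 (adjusted p = 0.0667), CTX replicate 1 (adjusted p = 0.0697) or CTX replicate 3 (adjusted p = 0.111). The mean change of HES1 was -0.24 ± 0.05 (adjusted p = 0.000123), and -0.16 without SCC61 or without SCC047 (adjusted p = 0.0186 and 0.0174).

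HEY1 fell further than HES1 in the same lines. In SCC61 the arrays went from 8.14, 8.19 and 8.32 to 7.16, 7.22 and 7.13, a change of -1.05 ± 0.17 (2.07-fold lower, limma adjusted p = 5.99e-06). In SCC047 they went from 8.85, 8.26 and 7.52 to 6.82, 7.25 and 6.69, a change of -1.29 ± 0.17 (2.45-fold lower, adjusted p = 3.68e-07), from controls that were themselves spread over more than 1 unit. In SCC090, from 11.92, 11.93 and 11.88 to 11.56, 11.59 and 11.52, the groups did not overlap, but the change of -0.36 ± 0.17 did not pass (adjusted p = 0.4). 93VU147T gave 0.36 ± 0.17 in the other direction (adjusted p = 0.11). Its mean over the lines was -0.47 ± 0.07 (adjusted p = 1.99e-06, 1.39-fold lower), and -0.31 without SCC047 (adjusted p = 0.00179). The second HEY1 probe set gave -0.44.

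**Figure D3:**
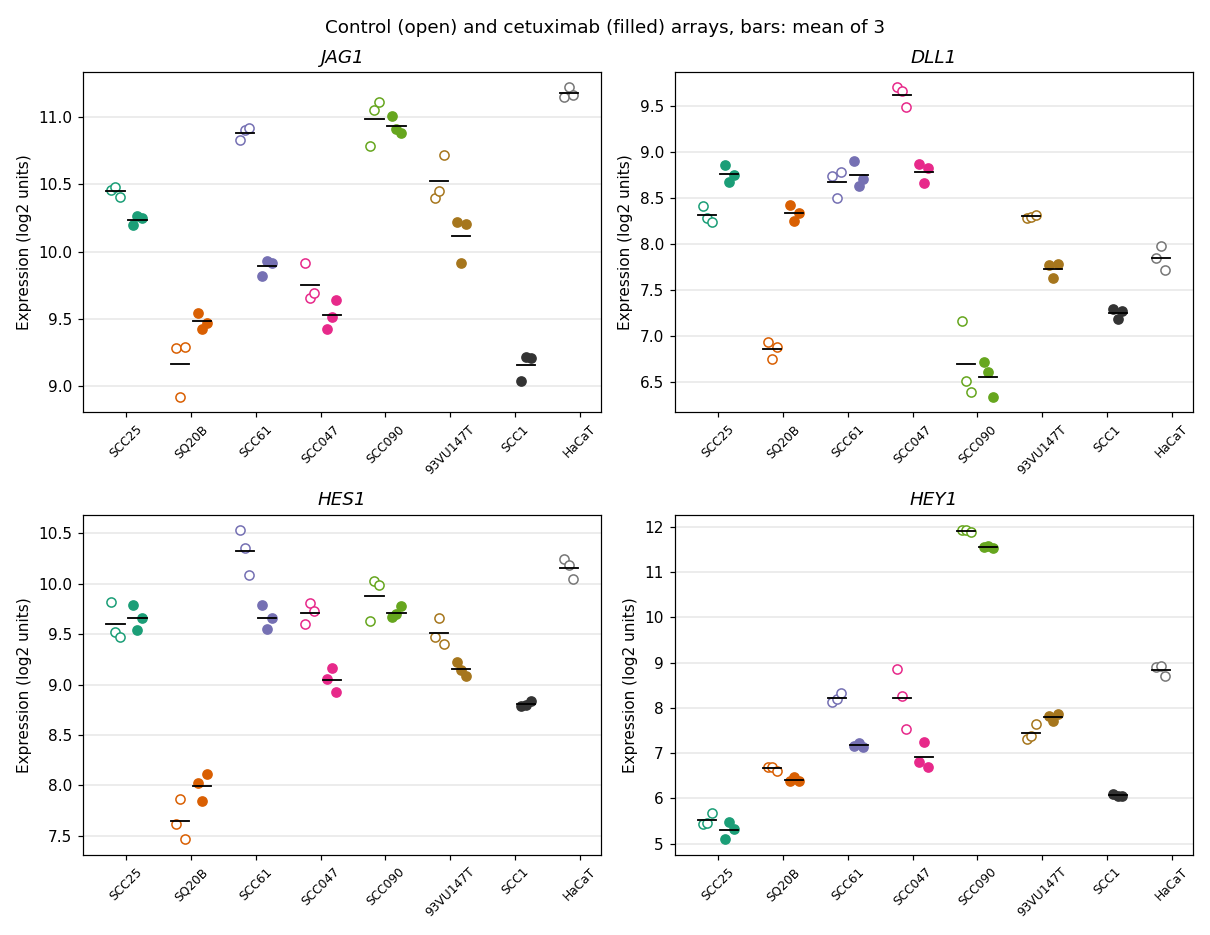
Expression (log2 units) of JAG1, DLL1, HES1 and HEY1 in each control array (open) and cetuximab array (filled) of the 6 lines, of treated SCC1 and of untreated HaCaT, with bars at the mean of 3. In SCC61 JAG1, HES1 and HEY1 fall without overlap, and in SQ20B DLL1 rises from about 6.9 to 8.3.

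The targets did not move with the ligands in every line. In SCC61, JAG1 (-0.99), HES1 (-0.66) and HEY1 (-1.05) fell while DLL1 (0.08) and JAG2 (0.18) did not pass. In SCC047, DLL1 (-0.84), HES1 (-0.66) and HEY1 (-1.29) fell while JAG1 (-0.23 ± 0.10, adjusted p = 0.0728) did not pass, except without CTX replicate 3 (-0.28, adjusted p = 0.0496) or with quantile normalization (-0.30, adjusted p = 0.015). In SQ20B, JAG1, JAG2, DLL1, NOTCH1 and NOTCH3 were called higher, and of the targets HES1 (0.34) was and HEY1 (-0.26 ± 0.17, adjusted p = 0.269) was not.

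SOX2 passed in no line on the probe set used, with changes from -0.54 ± 0.28 in SCC090 (limma adjusted p = 0.466) to 0.50 ± 0.28 in 93VU147T (adjusted p = 0.178). In SCC090 the arrays went from 12.48, 11.94 and 12.16 to 11.85, 11.54 and 11.58, and in SCC047 from 11.24, 11.20 and 10.92 to 10.65, 10.56 and 10.61, without overlap in either. On the second probe set in brightness SOX2 was lower in SCC090 (-1.09 ± 0.16, adjusted p = 0.000392) and SCC047 (-0.56 ± 0.16, adjusted p = 0.0103), in a fit over all probe sets. On the third the changes in the same lines were -1.12 ± 0.13 and -0.43 ± 0.13 (adjusted p = 8.91e-06 and 0.0114). The mean over the 6 lines was -0.10 ± 0.12 (adjusted p = 0.495) on the probe set used, -0.28 (adjusted p = 0.00139) on the second and -0.35 (adjusted p = 2.9e-06) on the third. In SCC61, without control replicate 3, which read 5.67 against 3.80 and 3.79, SOX2 was called higher (0.65, adjusted p = 0.0074) at a level near the bottom of the array's range.

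**Figure D4:**
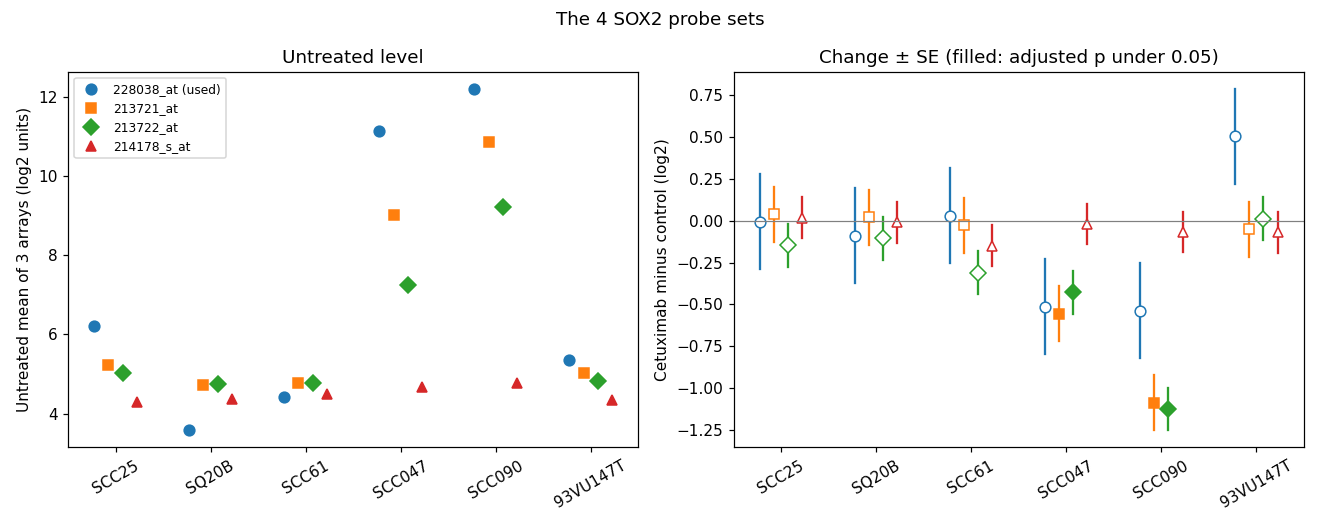
Untreated mean (left, log2 units, 3 arrays) and change with its SE (right, cetuximab minus control, log2 units) of the 4 SOX2 probe sets in the 6 lines, filled on the right where the adjusted p over all probe sets is under 0.05. In SCC047 and SCC090 the brightest 3 probe sets all lie below 0, and in SCC090 they read -0.54, -1.09 and -1.12.

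Averaged over the 6 lines, 4 of 9 members were called higher (NOTCH1, NOTCH2, NOTCH3 and JAG2) and 3 lower (JAG1, HES1 and HEY1), where 22.8% of all genes were higher and 23.1% lower (45.9% in all). The mean changes of the 3 receptors were 0.23, 0.17 and 0.26. On the dimmer probe sets NOTCH1 (-0.13, limma adjusted p = 0.0269) and NOTCH3 (-0.11, adjusted p = 0.0253) were lower. The shared direction of the receptors thus rests on the choice of probe set. The share of members called was 77.8%, but 0 passed with a required change of at least 0.5 (treat). No test of the list as a whole was run.

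The wider pathway was described by 5 further lists, of which 50 of 52 genes were measured. In the mean 14 of these were higher and 9 lower, 28% and 18% against 22.8% and 23.1% of all genes and so near the background. Their median change was 0.00 against -0.02 over all genes. The lines differed, with 36% higher and 8% lower in SQ20B (18.4% and 14.9% of all genes) and 22% and 2% in SCC25 (8.66% and 7.3%). The shares were 20% and 30% in SCC61 (24.4% and 19.8%), 20% and 32% in 93VU147T (15.8% and 18.8%) and 18% and 26% in SCC047 (17.3% and 19%). In SCC090 they were 2% and 0% (0.516% and 0.885%). LFNG, the Fringe enzyme that adds sugar to Notch and so sets which ligands it answers to, had the largest mean change (0.61 ± 0.04, adjusted p = 1.79e-13), and in SCC61 it rose by 2.36 (adjusted p = 2.11e-18). Among the 13 cleavage and glycosylation genes measured 5 were higher (38.5%, against 22.8% of all genes) and 1 lower (7.69%, against 23.1%) in the mean. The lower was the Fringe RFNG (-0.30), and POGLUT1, which adds glucose to Notch, rose by 0.98 in SCC61. The ADAM proteases that cut Notch were slightly higher in the mean, ADAM17 by 0.19 and ADAM10 by 0.17.

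Of 13 genes for turnover of ligands and receptors 3 were higher (23.1%) and 4 lower (30.8%) in the mean. Over all genes these shares were 22.8% and 23.1%, so the counts were near the background. DTX3L (0.51) rose in 5 of 6 lines, and NEURL1 (-0.42), a ligand ubiquitin ligase, and ITCH (-0.38), a ubiquitin ligase that acts on Notch, were lower. ITCH fell by 1.59 in SCC61 and rose by 0.47 in 93VU147T. NEURL1B was called higher in SQ20B (1.24) and lower in 93VU147T (-0.68), SCC047 (-0.47) and SCC61 (-0.40), which are the directions that DLL1 took in 3 of these lines. NUMB, an inhibitor of Notch, rose by 0.75 in SQ20B from 4.53 and fell by 0.64 in SCC61 from 5.14, which are low levels. Of the 9 nuclear genes measured, 3 were higher in the mean (33.3%, against 22.8% of all genes) and 0 lower (against 23.1%). The higher were HDAC1 (0.31), SPEN (0.18) and KAT2B (0.16). RBPJ itself changed by 0.01 ± 0.04 in the mean (adjusted p = 0.838), with increases in 93VU147T (0.37) and SCC047 (0.28) and a decrease in SCC61 (-0.29).

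The 9 other targets of the HES and HEY kind were mixed, 2 higher and 2 lower in the mean (22.2% each). That is near the background (22.8% and 23.1% of all genes). HES2 (0.34) and HES5 (0.28) were higher, and HES7 (-0.35) and HES6 (-0.25) were lower. HES5 was low, at 4.33 to 5.87 in the untreated lines. BHLHE41 fell by 1.42 in SCC61 and rose by 0.63 in SQ20B, and HES4 fell by 0.98 in 93VU147T. NRARP, a feedback target that is widely used as a Notch readout, did not pass in any line (mean 0.00, adjusted p = 0.958). Among the 6 other receptors and ligands, DNER was higher in the mean (0.32) and in SCC047 (1.10) and SCC61 (0.88), and DLL3 (-0.17) and NOTCH4 (-0.13) were lower. DNER started from 8.54 in SCC61 but from 3.65 in SCC047, which cannot be told from background. NOTCH4 was also low, at 5.08 to 5.40 in the untreated lines.

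Of the genes of keratinocyte differentiation 12 of 19 measured rose in the mean (63.2%, against 22.8% of all genes), and KLF4 was the 1 that fell (-0.14). KRT13, a keratin of differentiated mucosa, rose by 1.36, and involucrin (IVL) and the crosslinking enzyme TGM1 by 0.79 each. In SCC61, 10 of 19 rose (52.6%, against 24.4% of all genes) and 2 fell, with IVL at 2.70. In SCC25 7 rose (36.8%, against 8.66%) and in SCC090 4 (21.1%, against 0.516%). The shares lay near the background in SQ20B (3 genes, 15.8% against 18.4%), where KRT13 rose by 3.28 and TGM1 by 2.05, in SCC047 (4 genes, 21.1% against 17.3%) and in 93VU147T (3 genes, 15.8% against 15.8%, with 2 lower). The median change of the differentiation list was 0.36 in SCC090 and 0.29 in SCC61, against 0.00 and -0.03 over all genes. In SCC090 no Notch member passed, but the target HES5 was called higher (0.56, from a low 5.53), 1 of the 9 other targets. In SCC61 the targets HES1 and HEY1 fell. Of the 9 other targets 2 were higher there (22.2%, against 24.4% of all genes) and 3 lower (33.3%, against 19.8%). The higher were HES2 (0.70) and HES5 (0.60, from a low 4.56). Whether the differentiation genes moved with Notch signalling was not tested.

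Of 11 basal keratinocyte genes measured, 5 were higher in the mean (45.5%, against 22.8% of all genes) and 2 lower (18.2%, against 23.1%). The higher ones included the basal keratins KRT15 (0.95) and KRT5 (0.44) and FRAS1 (0.35), and the lower were LAMB3 (-0.19), a chain of laminin in the basement membrane, and ITGA3 (-0.17). KRT14, the usual partner of KRT5, did not pass in any line. In SQ20B 5 basal genes rose (45.5%, against 18.4% of all genes) and 1 fell (9.09%, against 14.9%). The counts were the same in 93VU147T (against 15.8% and 18.8%). In SCC61 2 rose (18.2%, against 24.4%) and 4 fell (36.4%, against 19.8%), LAMB3 by 0.93. In SCC047 0 rose (against 17.3%) and 3 fell (27.3%, against 19%). SCC25 had 2 higher and 0 lower (18.2% and 0%, against 8.66% and 7.3%). SCC090 had 1 of each (9.09%, against 0.516% and 0.885%). Genes from the chromosome 3 region that also holds SOX2 and TP63 were called higher in the mean for 8 of 12 (66.7%, against 22.8% of all genes). In the mean 0 were lower, and the largest rise was 0.29 (ATP11B). By line, 10 were higher in 93VU147T (83.3%, against 15.8% of all genes), 6 in SCC61 (50%, against 24.4%) and 5 in SCC047 (41.7%, against 17.3%). The others had 2 in SQ20B (16.7%, against 18.4%), 1 in SCC25 (8.33%, against 8.66%) and 0 in SCC090 (against 0.516%). In SCC61 2 were lower (16.7%, against 19.8%), and 1 each in SQ20B and SCC047 (8.33%, against 14.9% and 19%). EIF4A2, called higher in the mean, read 3.24 to 3.49 untreated and cannot be told from background. PIK3CA had no probe set in the annotation used and was not analysed here.

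DUSP6 (-0.72 to -4.56) and ETV4 (-0.44 to -0.81), genes induced by EGFR signalling, fell in 6 of 6 lines. The lines carried squamous markers, with KRT5, CDH1, EPCAM and DSP between 8.8 and 13.3, but KRT14 was at 4.85 in SQ20B, 5.77 in SCC090 and 7.05 in 93VU147T. The mean of 6 fibroblast markers was highest in SCC25 (6.42 to 6.51 untreated and 6.92 to 7.00 treated), where LUM rose by 1.80, and in SQ20B it went from between 4.69 and 4.83 to between 5.14 and 5.23, with COL1A1 higher by 1.83. The leukocyte and endothelial lists reached at most 5.25 and 5.30 on any array. The part of these markers in the members' changes was not tested. The 3′ minus 5′ difference of the ACTB control probe sets, a sign of RNA quality, was higher after treatment by 0.29 ± 0.09 (SE) in SQ20B, by 0.11 ± 0.05 in SCC047 and by 0.067 ± 0.018 in SCC25 (exact two-sided permutation test, p = 0.1 in each, the smallest 3 against 3 arrays can give). That of GAPDH was higher by 0.075 in SQ20B and 0.040 in SCC047 at the same p, and the part of these shifts in the members' changes was not tested.

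The SCC1 cells, all treated, held the members at levels within the range of the other treated lines, except that their JAG1 (9.16 ± 0.10) lay under the lowest of them, SQ20B (9.48). Their NOTCH1 (9.03) and NOTCH3 (9.20) were below those of SCC090 alone, and their HEY1 (6.07) was above that of SCC25 alone. For HaCaT, no member lay outside the range of the untreated cancer lines other than JAG1.

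The genes most like a member over the 14 condition means were sought among 10974 genes with a range of at least 1 log2 unit. SOX2 was most like MRAP2 (Pearson r = 0.961), SOX21-AS1 (0.96), an antisense transcript at the SOX21 gene, and TDRD9 (0.955). NOTCH3 was most like RTL8A (0.968), HEY1 like ARFGEF3 (0.949) and DLL1 like PLAAT4 (0.947), with CFB (0.929) and TRIM22 (0.928) next. For NOTCH1 the top gene was ZNF17 (0.912), for NOTCH2 CRYBG2 (0.939), for JAG1 IRF2BP2 (0.94), for JAG2 CD36 (0.895) and for HES1 HMBOX1 (0.904), which was also the third for JAG1 (0.887). The 14 points share lines, treatments and array dates, and each r is a description of them.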

How the data were processed

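RNA of 42 samples was measured on Affymetrix hgu133plus2.0 arrays, 3 in each of 14 conditions. For each array the authors deposited log2 expression values made with fRMA, which corrects the background, scales to a frozen reference and summarizes probes robustly. Their methods also name pSVA, a batch correction that could shrink differences between array dates, without saying if the deposited values include it. The values run from 2.62 to 14.5, with array medians between 5.09 and 5.16, and all columns were used. The number of arrays limits the precision.

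Of 54675 probe sets, 62 are array controls, 41091 carry 1 gene symbol, 1801 several and 11721 none. The brightest probe set stood for each of 19775 genes. Cross-hybridization was not examined.

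A model of 12 group means was fitted to 36 arrays with lmFit in limma 3.58.1 (R 4.3.3), leaving 24 residual and 6.86 prior degrees of freedom, with eBayes and Benjamini-Hochberg adjustment over all genes. The contrasts took treated minus control arrays per line and in the mean of the 6 lines, with moderated F tests across lines, and pairs of untreated lines next to each other in the order. The fit was tested on simulated data. Alternatives were other probe sets, a filter on dim genes, 2 other scalings, a replicate block, all 42 arrays and array date as a covariate. Others were a trend in eBayes, a minimum change of 0.5 (treat), and leaving out each array or line. Probe sets of SOX2 and JAG1 were also read singly in a fit over all probe sets, chosen after seeing the data. Named genes were the members, up to 3 of each list passing in the mean and 2 per line with the largest changes, and up to 3 genes alike in pattern. The members were named by a rule that uses no values, but they and the lists were chosen with earlier results of these data known. TP63 and PIK3CA were not analysed here.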

Additional observations from a re-analysis of the deposited data

Results flagged for a closer look

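The change after cetuximab differed between the 6 lines for 7 members, by the moderated F test of the difference itself in limma: NOTCH1 (adjusted p = 7.72e-05, from -0.28 in SCC61 to 0.89 in SQ20B), NOTCH3 (adjusted p = 0.00102, from -0.63 in SCC047 to 0.60 in SCC61) and JAG1 (adjusted p = 8.55e-08, from -0.99 in SCC61 to 0.31 in SQ20B). The same held for JAG2 (adjusted p = 1.58e-06, from 0.03 in SCC047 to 0.81 in SQ20B) and DLL1 (adjusted p = 1.37e-11, from -0.84 in SCC047 to 1.49 in SQ20B). It held for HES1 (adjusted p = 8.52e-06, from -0.66 in SCC047 to 0.34 in SQ20B) and HEY1 (adjusted p = 5.42e-06, from -1.29 in SCC047 to 0.36 in 93VU147T). SQ20B had the most positive change for NOTCH1, JAG1, JAG2, DLL1 and HES1.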

How the results depend on the processing

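The untreated differences held for 9 of 9 members in every alternative that was run. With the next probe set in brightness the members changed numbered 0 in SCC25, 2 in SQ20B, 3 in SCC047, 1 in SCC090 (SOX2) and 1 in 93VU147T, and the direction turned for NOTCH1 in SQ20B (-0.045) and in the mean (-0.13) and for NOTCH3 in SQ20B (-0.15), SCC61 (-0.086) and the mean (-0.11). With the mean of all probe sets 1 member changed in SCC090. With a required change of at least 0.5 (treat) the numbers were 0 in SCC25, 2 in SQ20B, 2 in SCC61, 1 in SCC047, 0 in 93VU147T and 0 in the mean. Without SQ20B the mean change of DLL1 turned to -0.20. Leaving out each array in turn gave 0 to 1 members in SCC25 (0 without CTX replicate 1 or control replicate 3), 4 to 6 in SQ20B, 4 to 5 in SCC61, 4 to 5 in SCC047, 0 to 0 in SCC090, 2 to 5 in 93VU147T (2 without CTX replicate 3 or control replicate 2, 5 without control replicate 3) and 6 to 7 in the mean. The replicate block gave 2 members in SCC25, adding NOTCH3 (0.43, adjusted p = 0.0223), and no other count moved by over 1.5 times. Same-numbered arrays correlated between -0.15 and 0.32 in their deviations, over 0.1 in 7 of 18 pairs, and 9 of 18 treated arrays correlated best with their own number, so the numbers were not taken as pairs. For single genes, 1320 values kept their call or stayed without one, whatever their sign, 63 lost a call, 34 gained one and 6 turned. The causes of these shifts were not tested. The 3 arrays a group limit the precision, and values near 4, such as those of SOX2 in SQ20B, cannot be told from background.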
